A study of Mus musculus with 36 samples.

Results

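The genes that write, maintain and erase DNA methylation were examined for the presence of epitope-tagged histone H4 in mouse embryonic stem cells. They were 9 genes taken by name, Dnmt1, Uhrf1, Dnmt3a, Dnmt3b, Dnmt3l, Tet1, Tet2, Tet3 and Tdg, out of 21887 protein-coding genes on the named chromosomes of the RefSeq table. Every HA ChIP-seq peak over each gene and 5 kb on either side was collected, with peaks at gene ends (within 1 kb) kept apart from those in the body. Gene ends are the outer edges of the RefSeq gene model on GRCm38.p6, the build also called mm10.

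The cells carried a stable PiggyBac transgene for triple-HA-tagged H4 with lysine 91 replaced by arginine (H4K91R) or glutamine (H4K91Q), the same tagged histone without a substitution (H4WT), or an empty vector. The labels call these lines parental, unlike the knockout lines elsewhere in the series. They name no change to the cells' own H4 genes in any of these lines. Tagged histone was recovered on anti-HA magnetic beads, and a peak is a stretch of DNA enriched in that pulldown over the input of its own line. The series has 36 samples, of which 4 pulldowns, 1 library per group, were analysed here. With 1 library per group no difference has a replicate check and no test was made. Exact 95% intervals cover the counting of genes or peaks only. The lists hold 49155 peaks for H4K91R, 14314 for H4K91Q, 69158 for H4WT and 3007 for the empty vector, and sequencing depth is unknown, so a missing peak means only that none was called. Peak lists carry no expression values, and the labelled cell type was not checked against its markers.

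In mammals, DNMT3A and DNMT3B add methyl groups to unmethylated CpG sites, helped by DNMT3L, a catalytically inactive cofactor. After replication UHRF1 binds hemimethylated CpG and recruits DNMT1, which copies the mark to the new strand. TET1, TET2 and TET3 oxidise 5-methylcytosine, and TDG excises its further oxidised forms so that repair can restore an unmethylated base. Stem cells are known for running both arms at once, expressing Tet1 and Tet2 beside the de novo methyltransferases.

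H4K91R peaks were found at 8 of the 9 genes, H4K91Q peaks at 2, H4WT peaks at all 9 and empty-vector peaks at 2. Over the genes and their flanks there were 30 H4K91R peaks, 2 H4K91Q peaks, 69 H4WT peaks and 3 empty-vector peaks. Dnmt3l was the gene with no H4K91R peak, and Dnmt3a and Tet2 were the genes with an H4K91Q peak. The empty-vector peaks lay in the bodies of Dnmt1 and Tet3. Among all protein-coding genes, 58.2% had an H4K91R peak over the gene or its flanks, 9.55% an H4K91Q peak, 71.6% an H4WT peak and 8.96% an empty-vector peak. Pooled over the 9 loci, H4K91R peaks numbered 0.487 per 10 kb, H4K91Q peaks 0.0325, H4WT peaks 1.12 and empty-vector peaks 0.0487. Per coding locus, unweighted by length, the mean was 0.544 for H4K91R, 0.0459 for H4K91Q, 0.973 for H4WT and 0.0328 for the empty vector. The median coding locus had 0.160 for H4K91R and 0.370 for H4WT, and 0 for H4K91Q and the empty vector. The pooled values weigh loci by length and the per-locus values do not. Neither the mean nor the median is thus a like measure for the pooled densities.

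**Figure D1:**
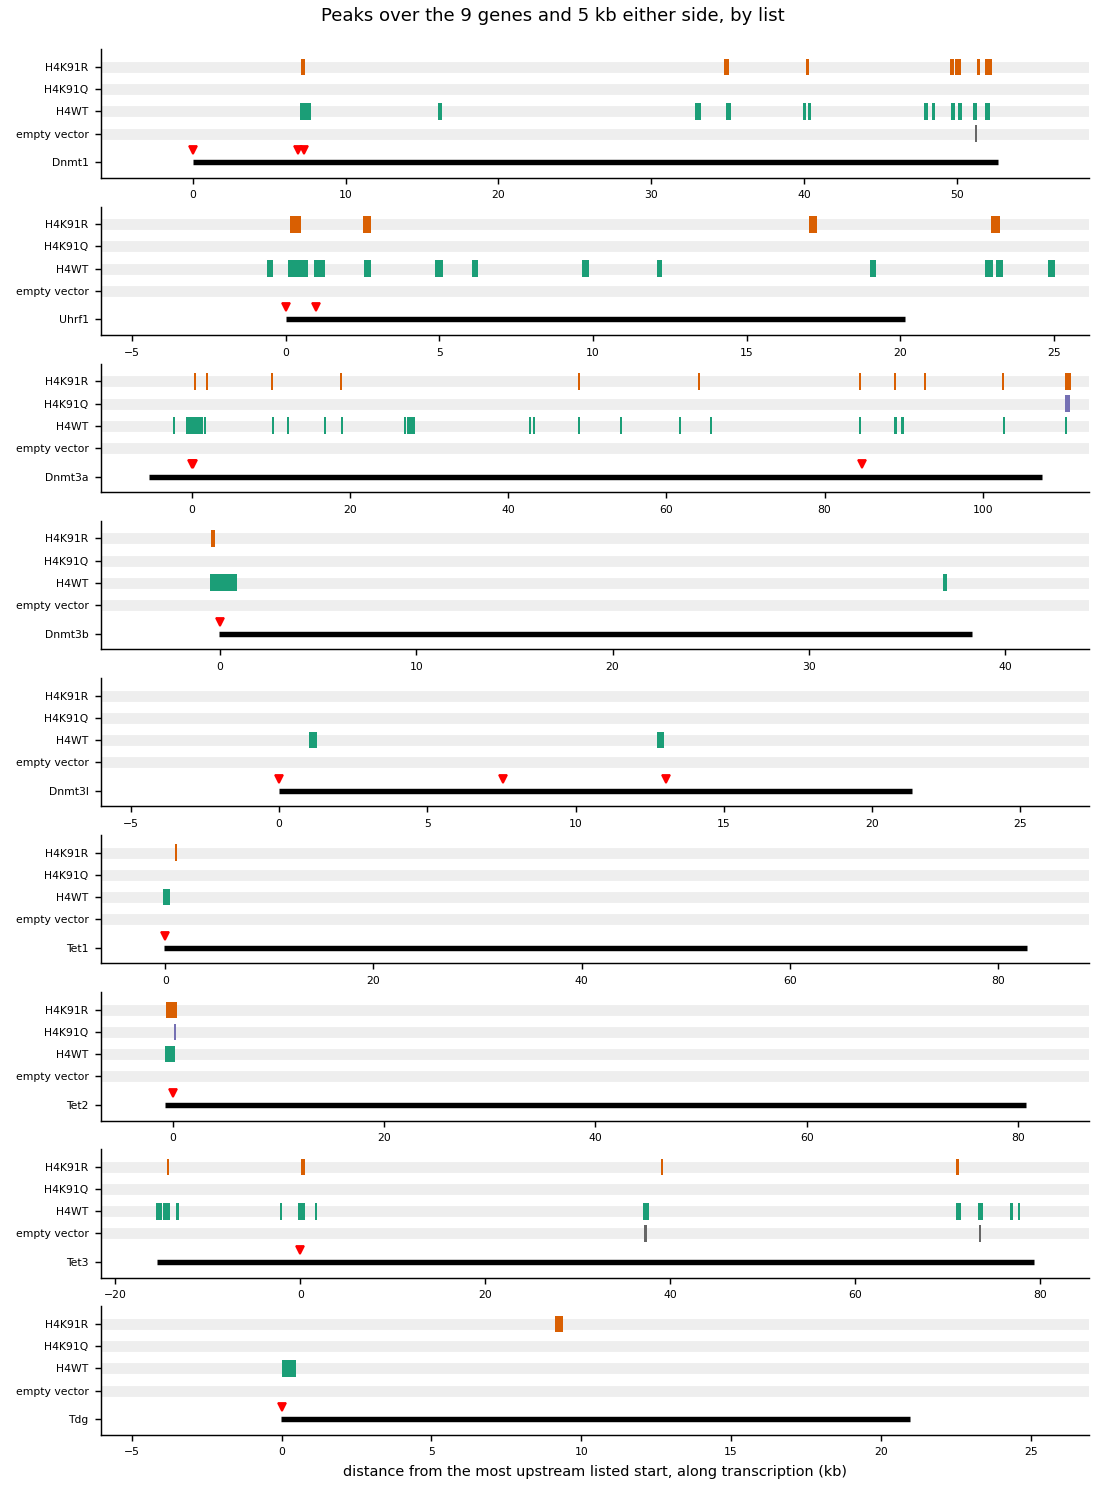
Peaks over each of the 9 genes and 5 kb either side, drawn along transcription with the distance in kb from the most upstream listed start. Coloured bars are peaks of the H4K91R, H4K91Q, H4WT and empty-vector lists from top to bottom, the black bar is the RefSeq gene model and red triangles are listed starts. Narrow peaks are widened to stay visible. The map shows 24 H4WT peaks at Dnmt3a and 12 each at Dnmt1, Uhrf1 and Tet3, against 1 each at Tet1, Tet2 and Tdg.

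The clearest shared feature was H4WT at the transcription start. H4K91R reached it in fewer genes, as it also did among all coding genes. RefSeq lists 16 starts for the 9 genes, and a start window runs from 250 bases before to 50 after each. H4K91R lay over a window of 4 genes (Dnmt1, Dnmt3a, Dnmt3b and Tet2; 13.7 to 78.8%), against 18.7% of the 17492 protein-coding genes with a listed start. By window this was 4 of 16, with a background of 17.1%, and among the genes with 1 start 2 of 5 (Dnmt3b and Tet2), with a background of 16.4%. At Dnmt3a and Dnmt3b the H4K91R peak reached only the upstream part of the window, without crossing the start itself. In lists of equal length only Tet2 had an H4K91R peak over its window, with a background of 6.96%. H4K91Q lay over none of the 16 windows, where the background was 0.357% of windows, 0.4% of genes and 0.326% of genes with 1 start.

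H4WT lay at the starts of more of these genes. All 9 genes had an H4WT peak over at least 1 of their windows (exact 95% interval 66.4 to 100%), against 43.1% of the 17492 protein-coding genes with a listed start. At Dnmt3l and Tdg the H4WT peak overlapped the window without crossing the start itself. Genes with several starts have more chances. The 5 members with 1 listed start (Dnmt3b, Tet1, Tet2, Tet3 and Tdg) all had an H4WT peak there, against 39.4% of the 14731 such genes. Counted by window, H4WT lay over 11 of 16, against 40.5% of the 21263 windows of coding genes. The first and second windows of Dnmt3a overlap and were met by the same H4WT peak, so they are not independent counts. In tagged lists cut to their 14314 peaks of highest −log10 q, H4WT lay at the starts of 5 of the 9 genes (Dnmt1, Dnmt3a, Dnmt3b, Tet2 and Tet3), with a background of 21.3%. The empty vector lay over none of the windows, with backgrounds of 0.207% of windows, 0.234% of genes and 0.156% of genes with 1 start.

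Widening the view to 1 kb around a listed start gave 7 genes for H4K91R (40.0 to 97.2%), all but Dnmt3l and Tdg, against 35.3% of coding genes. Tet2 was the 1 gene for H4K91Q, where the background was 0.675%. H4WT was again at all 9, with a background of 58.0%, and the empty vector at none, with a background of 0.858%.

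**Figure D2:**
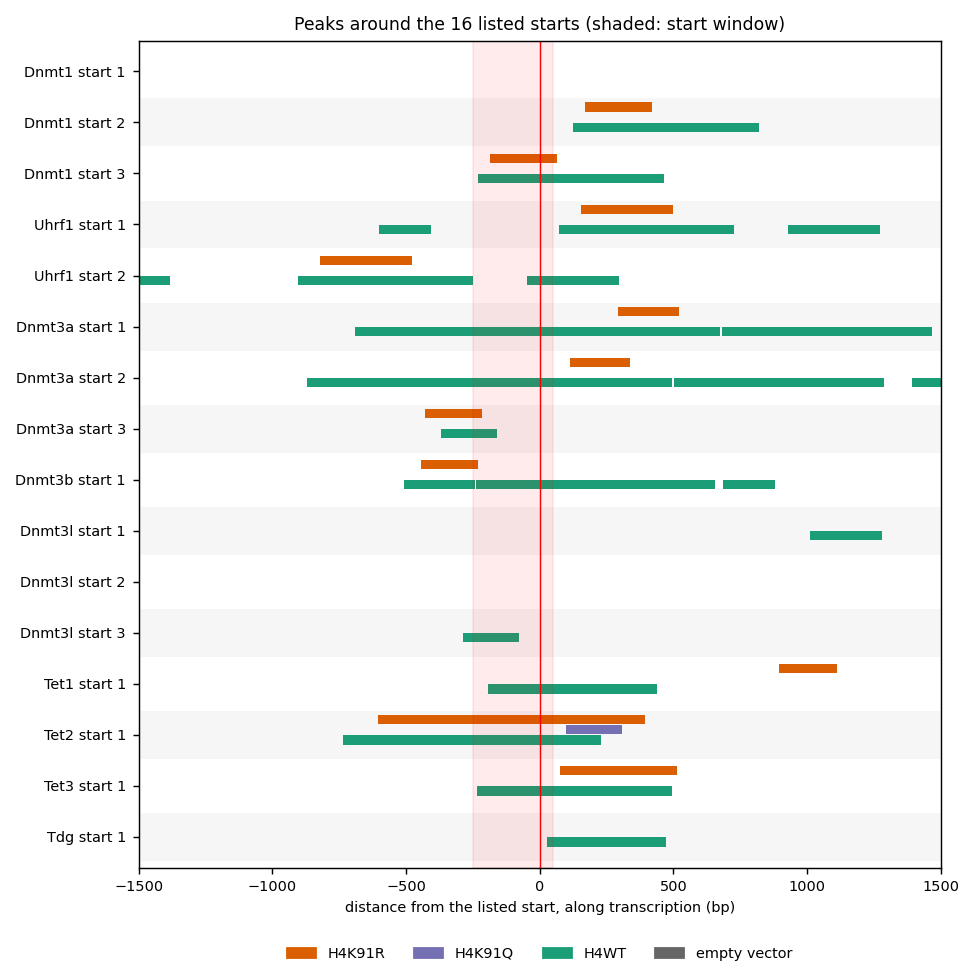
Peaks around the 16 listed starts, numbered from upstream, with distance in bp along transcription. Each start has up to 4 bars, one colour per list, and the shaded band is the start window. H4K91R bars reach into the band at 4 starts, H4K91Q bars at none and H4WT bars at 11.

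Gene ends as drawn by the gene model gave a different picture, since several listed starts lie inside the model. The first listed start was 15530 bp inside the model of Tet3 and 5421 bp inside that of Dnmt3a. At gene ends H4K91R had peaks at 4 genes (Dnmt1, Uhrf1, Dnmt3b and Tet2), against 38.3% of coding genes. H4K91Q had 1, at Tet2, with a background of 1.29%, and H4WT had 7 (40.0 to 97.2%), with a background of 58.9%. The empty vector had none, with a background of 1.67%. Dnmt3a and Dnmt3l were the genes with no tagged histone at either end. These shares were close to the background for H4K91R, and for H4WT the background lay inside the interval. Lists of equal length left 2 genes for H4K91R (Dnmt1 and Tet2; background 14.2%) and 2 for H4WT (Dnmt3b and Tet2; background 29.7%).

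In the body, more than 1 kb from either end, H4K91R had peaks in 6 genes (Dnmt1, Uhrf1, Dnmt3a, Tet1, Tet3 and Tdg) and H4WT in 6 (Dnmt1, Uhrf1, Dnmt3a, Dnmt3b, Dnmt3l and Tet3). The exact interval was 29.9 to 92.5% for each. H4K91Q had none and the empty vector 2. Over all coding genes the shares were 34.2% for H4K91R, 6.43% for H4K91Q, 41.8% for H4WT and 6.24% for the empty vector. Longer genes have more room, and among the 7921 coding genes between the shortest member (20150 bp) and the longest (112885 bp) the shares were 43.2%, 8.36%, 51.2% and 8.58% in the same order. The shares of all 4 lists lay within the exact intervals of the 9 genes.

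**Figure D3:**
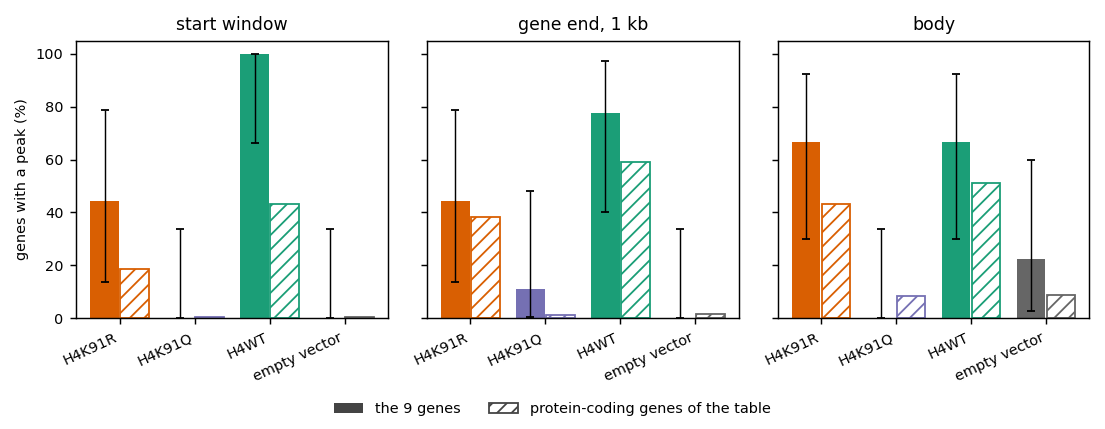
Percent of genes with a peak over a start window, within 1 kb of a gene end, or in the body, for each list. Filled bars are the 9 genes with exact 95% intervals and hatched bars are protein-coding genes of the RefSeq table (for the body, those as long as the 9). The H4WT bar at start windows stands at 100% beside a background of 43.1%.

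Among the maintenance genes, Dnmt1 carried tagged H4 at its internal start and along the distal part of the gene. Dnmt1 (chr9:20907206-20959888, minus strand) had 7 H4K91R peaks, no H4K91Q peak, 12 H4WT peaks and 1 empty-vector peak. RefSeq lists 3 starts, and the most upstream, at the edge of the model, had no peak of any list within 1 kb. The third start, 7265 bp inside the model, had peaks of both. The H4K91R peak there (chr9:20952559-20952810) had an authors' fold of 5.26, above 46.98% of its own list. The H4WT peak, chr9:20952159-20952853, was the highest of the gene in its list, with a fold of 10.1, above 94.96% of H4WT peaks. The authors' fold is the enrichment over background at the summit, and it is ranked here only within a list. In mouse, transcription of Dnmt1 is known to begin at different first exons in oocytes and somatic cells.

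The windows of starts 1 and 3 are shown because the first had no peak and the other had both H4K91R and H4WT. Sequences run 5′ to 3′ on the strand of the gene, from RefSeq on GRCm38.p6, and capitals mark CpG sites, the substrate of these enzymes. The first window (chr9:20959839-20960138, minus strand) held 2 CpG sites and the third (chr9:20952574-20952873, minus strand) held 33.
Dnmt1 start 1: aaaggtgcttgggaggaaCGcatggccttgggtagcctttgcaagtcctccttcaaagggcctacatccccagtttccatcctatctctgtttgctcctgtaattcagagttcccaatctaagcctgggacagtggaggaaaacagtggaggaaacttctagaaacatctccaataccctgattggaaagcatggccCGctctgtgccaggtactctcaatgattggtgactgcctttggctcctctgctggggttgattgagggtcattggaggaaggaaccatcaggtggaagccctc
Dnmt1 start 3: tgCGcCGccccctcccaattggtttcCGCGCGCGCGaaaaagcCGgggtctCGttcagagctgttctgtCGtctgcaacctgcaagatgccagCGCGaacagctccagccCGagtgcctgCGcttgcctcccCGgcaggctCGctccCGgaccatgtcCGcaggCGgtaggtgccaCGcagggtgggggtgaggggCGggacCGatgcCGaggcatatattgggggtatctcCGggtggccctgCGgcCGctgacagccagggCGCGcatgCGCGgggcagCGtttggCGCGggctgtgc

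Most other peaks of Dnmt1 lay toward the far end of the gene. All 7 places with H4K91R also had H4WT, and 4 more places had H4WT alone. At the far gene end H4K91R had a peak at chr9:20907597-20908048 (fold 6.61) and H4WT at chr9:20907690-20908065 (fold 5.57). The empty-vector peak, chr9:20908540-20908702 (fold 5.28), overlapped both an H4K91R and an H4WT peak, so that place was not particular to tagged H4.

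Uhrf1 was the most densely covered gene for H4WT. Uhrf1 (chr17:56303337-56323486, plus strand) had 4 H4K91R peaks, no H4K91Q peak, 12 H4WT peaks and no empty-vector peak. Its H4WT density was 3.98 peaks per 10 kb, above 94.4% of coding loci, and H4WT covered 10.8% of the locus. This density and cover include 3 flank peaks over Kdm4b, described below. H4K91R had its first peak between the listed starts, at chr17:56303493-56303837 (fold 5.80). H4WT lay over the second listed start (chr17:56304266-56304608, fold 6.22), while its wider peak at chr17:56303410-56304064 (fold 7.23) lay between the starts and reached only the edge of that window. That wider peak contained the H4K91R one. The highest H4WT fold of the locus, 7.61, was in the body at chr17:56312966-56313199, where H4K91R had no peak. In the flank, 1 H4K91R and 3 H4WT peaks lay over the neighbouring gene Kdm4b, which encodes a histone demethylase, and cannot be assigned to Uhrf1.

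The de novo methyltransferase genes differed widely in their number of peaks. Dnmt3a (chr12:3801559-3914443, plus strand) had 11 H4K91R peaks, 1 H4K91Q peak, 24 H4WT peaks and no empty-vector peak. At the first and second listed starts H4K91R had no peak over the windows, and its nearest, chr12:3807273-3807499 (fold 4.72), lay 64 bp past the second one. H4WT spanned both starts with a peak of 1366 bp, chr12:3806289-3807654, which contained that of H4K91R. Its fold of 12.2 was the highest of any H4WT peak at the 9 genes and above 98.8% of the H4WT list. At the third start, 90185 bp into the model, H4K91R had a peak at chr12:3891314-3891528 (fold 4.42) and H4WT at chr12:3891374-3891586 (fold 5.62). Both reached the window's upstream edge without crossing the start itself, and both also overlap the non-coding gene Gm31623.

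The windows of starts 1 and 3 are shown because the H4WT peak ranked high at the first and near the middle of its list at the other. The first (chr12:3806730-3807029, plus strand) held 46 CpG sites at 82.3% GC, and the third (chr12:3891494-3891793, plus strand) held 18 at 74.0% GC.
Dnmt3a start 1: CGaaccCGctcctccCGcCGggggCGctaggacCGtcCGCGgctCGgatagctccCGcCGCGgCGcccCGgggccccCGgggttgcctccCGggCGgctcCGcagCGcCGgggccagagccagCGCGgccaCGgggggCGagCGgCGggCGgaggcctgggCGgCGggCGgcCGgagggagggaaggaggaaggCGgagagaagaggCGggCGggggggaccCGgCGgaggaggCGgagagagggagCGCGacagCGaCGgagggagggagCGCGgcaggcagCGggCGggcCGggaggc
Dnmt3a start 3: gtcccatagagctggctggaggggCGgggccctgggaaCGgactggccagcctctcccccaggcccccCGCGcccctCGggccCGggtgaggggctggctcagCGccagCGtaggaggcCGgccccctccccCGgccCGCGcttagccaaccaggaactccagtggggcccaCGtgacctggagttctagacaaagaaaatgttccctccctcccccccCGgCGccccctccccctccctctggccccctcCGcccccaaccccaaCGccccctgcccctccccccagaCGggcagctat

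Past the 3′ end of Dnmt3a all 3 tagged histones met. H4K91R had a peak at chr12:3917415-3918132 (fold 8.73, above 93.6% of its list). H4K91Q had 1 at chr12:3917397-3918029 (fold 7.65, above 89.7%). The H4WT peak there was shorter, chr12:3917399-3917651, with a fold of 5.57, above 47.02% of its list. Within its own list this place thus ranked high for both mutants and near the middle for H4WT. It lies outside the gene and overlaps no annotated gene, and no empty-vector peak was called there.

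Most other peaks at Dnmt3a ranked lower. With the flank included, the median H4K91R peak stood above 16.8% of its list, and the median H4WT peak above 46.0%. Of 26 separate places at the locus, 2 had H4K91R alone, 8 H4K91R with H4WT, 15 H4WT alone and 1 all 3. A run of 5 H4WT peaks from chr12:3833831-3834021 to chr12:3834968-3835233 had no counterpart in the other lists.

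Dnmt3b, the other de novo enzyme gene, was occupied mainly at its start. Dnmt3b (chr2:153649411-153687730, plus strand) had 1 H4K91R peak, no H4K91Q peak, 4 H4WT peaks and no empty-vector peak. The H4K91R peak, chr2:153649006-153649220 (fold 4.71), stood above 23.0% of its list. It reached the upstream edge of the start window (chr2:153649199-153649498) without crossing the start itself. H4WT covered the start with chr2:153649210-153650104 (fold 7.61, above 80.1% of its list), flanked by a peak on each side. The H4K91R peak met both this and the upstream H4WT peak.

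Dnmt3l, the cofactor gene, was the 1 gene with neither mutant. Dnmt3l (chr10:78042287-78063622, plus strand) had no H4K91R, H4K91Q or empty-vector peak and 2 H4WT peaks. The first, chr10:78043299-78043567 (fold 5.68), also overlaps Aire, a neighbouring gene that encodes a regulator of thymic tolerance. The second, chr10:78055048-78055256 (fold 5.71), overlapped the upstream part of the third start window (chr10:78055085-78055384) without crossing the start itself. That window held 3 CpG sites, the fewest of the 11 windows with H4WT, and is shown for this contrast with the windows above.
Dnmt3l start 3: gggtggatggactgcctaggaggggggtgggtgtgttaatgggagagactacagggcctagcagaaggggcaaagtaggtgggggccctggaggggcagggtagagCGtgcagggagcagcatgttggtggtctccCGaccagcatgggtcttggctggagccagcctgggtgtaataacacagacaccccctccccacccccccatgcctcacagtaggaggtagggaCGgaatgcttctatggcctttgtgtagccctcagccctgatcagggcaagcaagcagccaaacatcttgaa

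The 3 dioxygenase genes each had H4WT at the start but differed in the number and place of their peaks. Tet1 (chr10:62804570-62887469, minus strand) had 1 H4K91R peak and 1 H4WT peak, and no H4K91Q or empty-vector peak. The H4K91R peak, chr10:62886214-62886428 (fold 4.31, above 11.8% of its list), had its summit 1066 bp downstream of the start. The H4WT peak, chr10:62886884-62887516 (fold 5.93, above 55.1%), crossed the start, and the peaks did not overlap. Both also lie over the non-coding gene Gm51805. The remaining length of Tet1 had no peak in any list.

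Tet2 was the 1 gene with all 3 tagged histones within 1 kb of its start. Tet2 (chr3:133463677-133545136, minus strand) had 1 peak in each tagged list and none in the empty-vector list, all near the upstream edge of an 81460 bp gene. H4K91R had chr3:133543996-133544996 (fold 9.61, above 95.5% of its list). H4K91Q had chr3:133544084-133544293 (fold 4.37, above 24.9% of its list). H4WT had chr3:133544160-133545125 (fold 8.69, above 88.8% of its list). The H4K91R and H4WT peaks were about as wide as each other, 1001 and 966 bp, while that of H4K91Q was 210 bp. Summits of H4K91R and H4WT lay at -439 and -449 bp from the listed start, which is upstream of it, and that of H4K91Q lay 247 bp downstream. The H4K91Q peak ended 48 bp short of the start window. Elsewhere among the 16 windows the nearest H4K91Q peak was between 15114 and 433986 bp away.

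The Tet2 window (chr3:133544341-133544640, minus strand) is shown because H4K91R and H4WT both covered it. It held 57 CpG sites, the most of the 16 windows, at 81.3% GC and a CpG ratio (observed over expected from its C and G content) of 1.17.
Tet2 start 1: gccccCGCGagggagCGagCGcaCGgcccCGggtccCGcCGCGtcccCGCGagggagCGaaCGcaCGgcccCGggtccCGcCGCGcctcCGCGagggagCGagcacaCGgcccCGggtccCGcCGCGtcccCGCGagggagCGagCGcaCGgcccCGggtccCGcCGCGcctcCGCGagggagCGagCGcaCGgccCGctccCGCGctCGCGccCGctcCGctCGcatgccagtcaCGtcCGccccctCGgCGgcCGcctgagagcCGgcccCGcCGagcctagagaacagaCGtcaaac
The window is internally repetitive: the 12-base unit cCGCGagggagc, picked as its most frequent 12-base string, occurs 5 times in it. Of the 21263 coding start windows, 1 holds that unit on either strand, namely this one. Since the unit was picked from this window, that count does not measure how unusual the sequence is. How reads from repeated sequence were placed is not given in the sources used here.

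Of all coding genes, 0.964% (211 genes) shared the gene-end pattern of Tet2, with the 3 tagged histones and no empty-vector peak. By the distance between within-list fold percentiles over the 4 lists, the nearest were Myadml2 (5.12 percentile points), Gng10 (5.50), Tmem205 (6.92), Ube2e2 (7.55) and Vmn1r56 (9.73). These genes were picked on these same folds, so their likeness to Tet2 was fixed by the choice. At their ends they had an H4K91R fold of 9.64 to 14.8, an H4K91Q fold of 4.11 to 4.57 and an H4WT fold of 8.07 to 9.59.

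Tet3 had the most H4WT of the dioxygenase genes and the most empty-vector peaks of the group. Tet3 (chr6:83362373-83457208, minus strand) had 4 H4K91R peaks, no H4K91Q peak, 12 H4WT peaks and 2 empty-vector peaks. At the listed start H4K91R had chr6:83441165-83441601 (fold 7.11, above 85.4% of its list), which ended 28 bp short of the window. H4WT had chr6:83441182-83441914 (fold 8.75, above 89.0%), which crossed it. The model begins 15530 bp upstream of this start, and near that edge H4K91R had 1 peak and H4WT 3. The H4K91R peak was at chr6:83455834-83456048 (fold 4.82). The empty-vector peaks, chr6:83368121-83368297 and chr6:83404208-83404518 (fold 4.66 each), overlapped none of the 4 H4K91R peaks and 3 of the 12 H4WT peaks. The H4WT peak at the start and 1 further upstream also overlapped B230319C09Rik.

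Tdg, the glycosylase gene, had separate H4K91R and H4WT peaks. Tdg (chr10:82629814-82650799, plus strand) had 1 of each, and no H4K91Q or empty-vector peak. The H4K91R peak, chr10:82638962-82639226 (fold 4.59, above 19.7% of its list), had its summit 9225 bp downstream of the start. The H4WT peak, chr10:82629864-82630309 (fold 5.71, above 50.1%), began just past the start and overlapped its window. RefSeq also lists 2 pseudogene entries for Tdg and 1 each for Dnmt3a, Dnmt3b and Dnmt3l, and how reads shared with such copies were placed is not given in the sources used here.

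**Figure D4:**
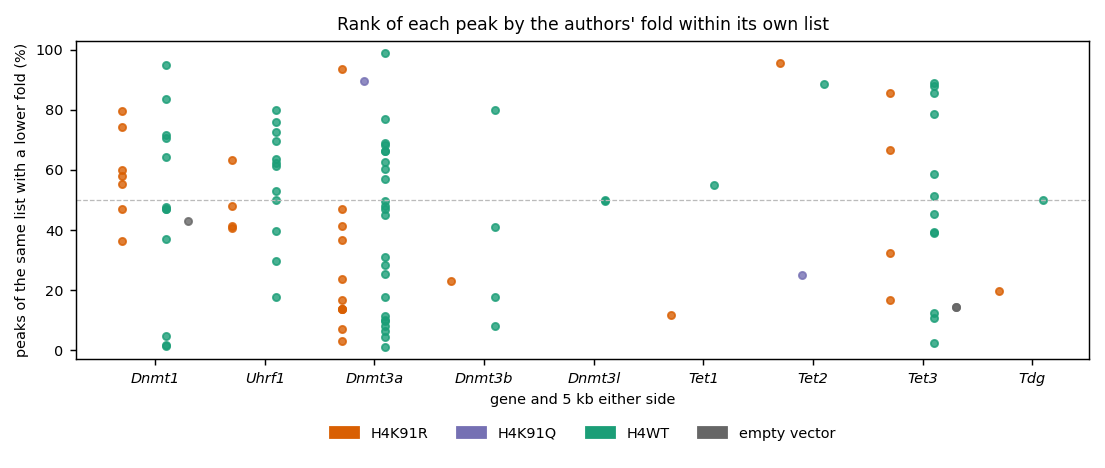
Rank of each peak by the authors' fold within its own list, as the percent of peaks of that list with a lower fold, for each gene and list. Points are single peaks and the dashed line is the middle of a list. The highest H4K91R point belongs to Tet2 (95.5%) and the highest H4WT point to Dnmt3a (98.8%).

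Ranked in this way, peaks at the 9 genes lay near the middle of the 2 long lists. The median H4K91R peak stood above 41.0% of its list, the median H4WT peak above 49.8%, and the median empty-vector peak above 14.4%. Median widths were 250.5 bp for H4K91R and 253 bp for H4WT, close to those of the complete lists (271 and 267 bp). H4K91R covered 1.51% of the bases of the 9 loci, against 1.06% over all coding loci, and H4K91Q covered 0.137%, against 0.170%. H4WT covered 3.87%, against 1.99%, and the empty vector 0.106%, against 0.0387%. Pooled cover by H4K91R, H4WT and the empty vector was thus above that of all coding loci, but single loci differed. H4WT covered 3.26 to 10.8% at Dnmt1, Uhrf1, Dnmt3a, Dnmt3b and Tet3, and 0.681 to 1.53% at Dnmt3l, Tet1, Tet2 and Tdg. H4K91R covered 1.09 to 3.68% at Dnmt1, Uhrf1, Dnmt3a, Tet2 and Tet3, and at most 0.855% at Dnmt3b, Dnmt3l, Tet1 and Tdg. Leaving out tagged peaks that overlap an empty-vector peak changed no count of genes with H4K91R or H4WT at starts, at gene ends or in the body.

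H4K91R peaks mostly lay where H4WT lay. Of the 30 H4K91R peaks, 24 overlapped an H4WT peak (exact interval 61.4 to 92.3%), against 67.1% of H4K91R peaks over all coding loci. Both H4K91Q peaks overlapped H4K91R and H4WT peaks, against 60.0% and 25.8% of H4K91Q peaks over all coding loci, and 2 peaks allow a share as low as 15.8%. From the other side 27 of 69 H4WT peaks overlapped H4K91R (39.1%, 27.6 to 51.6), against 38.9%. Merged into 72 places, the 3 tagged lists met at 2 (Tet2 and the flank of Dnmt3a). H4K91R alone held 6, H4K91R and H4WT shared 22, and H4WT alone held 42. This split has no count over all coding loci beside it and the lists differ in length, so it is not read as particular to these genes. The share of H4K91R peaks that overlapped H4WT rested on a 1 bp overlap. With 50% of each peak required it was 43.3%, and in lists of equal length 2 of 5. No share over all coding loci is available for either setting. An empty-vector peak overlapped 1 H4K91R peak (3.33%), no H4K91Q peak and 4 H4WT peaks (5.80%). Over all coding loci the shares were 2.83% of H4K91R, 0.897% of H4K91Q and 2.94% of H4WT peaks.

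Base composition varied with H4WT among the start windows. The 11 windows with an H4WT peak include the overlapping first and second windows of Dnmt3a. They had a median GC content of 71.3% and a median CpG ratio of 0.91, and the 5 without had 57.0% and 0.27. The same difference held over all coding windows, at 65.0% and 0.79 with H4WT, against 50.3% and 0.30 without. The 4 windows with H4K91R had medians of 75.0% and 0.80, against 61.0% and 0.54 in the other 12. Over all coding windows they were 65.7% and 0.77 with H4K91R, against 54.3% and 0.48 without. Dnmt3l start 3, with 3 CpG sites, and Dnmt3a start 3, with a ratio of 0.47, had H4WT at low CpG. All 5 windows without H4WT belonged to Dnmt1, Uhrf1 and Dnmt3l, each of which had H4WT at another listed start.

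**Figure D5:**
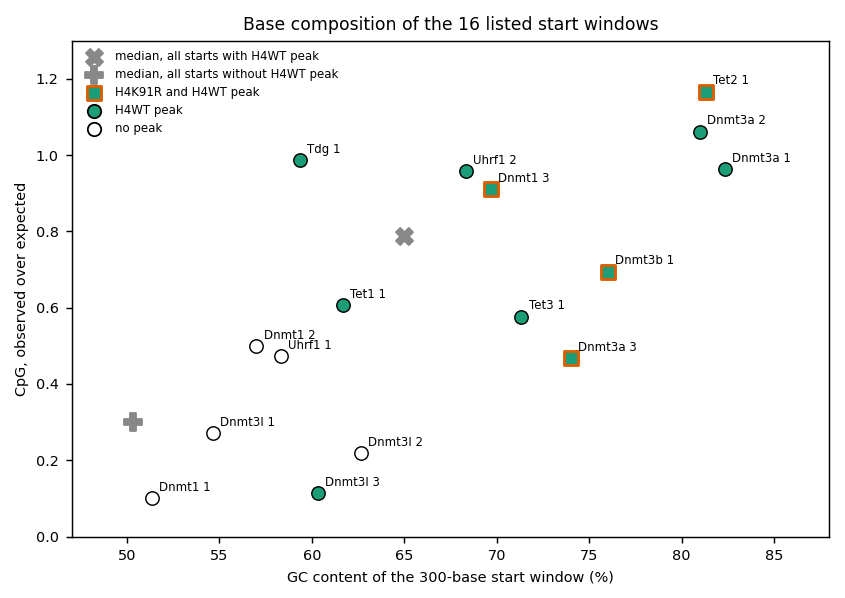
GC content (%) and CpG ratio of the 16 listed start windows, 300 bases each, numbered from upstream within a gene. Filled circles have an H4WT peak, squares with an orange edge have H4K91R and H4WT, and open circles have no peak. Windows with H4WT lie mostly to the upper right, with Dnmt3l start 3 (ratio 0.11) and Dnmt3a start 3 (0.47) lower.

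Short motifs were searched on both strands of the windows, as a description of letters only. GGGCGG, the GC box, was in 12 of 16 windows, against 46.2% of all coding windows. CCAAT was in 6, against 38.2%, and TTTNNCGC, an E2F-like string, in 3, against 6.24%. The last lay in the third window of Dnmt1 (3 matches) and in both windows of Uhrf1 (1 each). TATAAA and ATTTGCAT were in none, against 12.6% and 1.66%.

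A wider list of 46 genes of DNA methylation and demethylation gave counts near the background of all coding genes. At gene ends H4K91R lay at 18 of them (39.1%, 25.1 to 54.6), H4K91Q at 1 (2.17%), H4WT at 32 (69.6%, 54.2 to 82.3) and the empty vector at 1 (2.17%). The backgrounds given above for gene ends, 38.3%, 1.29%, 58.9% and 1.67%, lie within the exact intervals. Repair and deamination genes had H4K91R at 5 of 12 and H4WT at 10. De novo partners had H4K91R and H4WT at the same 4 of 5 genes, Ehmt1, Ehmt2, Nsd1 and Setd2, which encode histone methyltransferases. Genes of CXXC proteins, which bind unmethylated CpG, had H4K91R at 3 of 5 (Cxxc1, Cxxc5 and Kdm2a) and H4WT at 4, these and Kdm2b. Methyl-CpG readers and repressors had H4K91R at 3 of 10 and H4WT at 6, which include the corepressor gene Trim28. Maintenance partners had H4K91R at 2 of 6 (Uhrf2 and Lig1), H4K91Q at 1, H4WT at 4 (these, Hells and Cdca7) and the empty vector at 1. Cofactor supply genes had H4K91R at 1 of 7 and H4WT at 4, and Trdmt1 had no peak at its ends.

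Within that list the highest H4K91R folds were at Idh1, an isocitrate dehydrogenase (13.3), Lig1, the replicative DNA ligase (9.92), Gadd45g, a stress-induced gene linked to demethylation (7.76), Parp1 (7.66) and Gadd45a (7.62). The highest H4WT folds were at Gadd45g (11.9), Smug1, a uracil glycosylase (11.04), Trim28, the KAP1 corepressor (10.8), Uhrf2, a paralog of Uhrf1 (9.05), and Gadd45b (8.75). Lig1 was also the gene with H4K91Q, at chr7:13311177-13312209 (fold 6.97). Uhrf2 was the gene with an empty-vector peak, chr19:30030837-30031050 (fold 4.88), which lies inside its H4WT peak at chr19:30030502-30031327.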

How the data were processed

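HA ChIP-seq peak lists of 4 libraries, 1 per group, were used. Peaks were called with MACS2 on mm10, per the submitters' processing notes, with 1 call per pulldown and that line's input as control, per the peak names in the deposited files. Not given in the sources used here: the MACS2 version, the aligner, how duplicates were handled and the cutoff on q. The deposited score is 10 times the −log10 q rounded down. The authors' fold is a ratio over local background. The deposited −log10 q was used to filter peaks, and the −log10 p was not used. The lists give no read numbers, so depth is unknown, and a deeper library can yield more peaks.

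Genes came from RefSeq GRCm38.p6 (49997 genes) and starts from RefSeq start windows, which gave strand for all 9 genes. The midpoint of a peak decided whether it was at an end, in the body or in the flank. A gene counted as marked where any peak overlapped 1 kb on either side of an end. Peaks that overlap an empty-vector peak were kept and are named. Overlaps needed 1 bp. Intervals are exact (Clopper-Pearson, 95%, scipy 1.17.1) and cover counting error only. The steps were checked on simulated peaks. The genes, the wider list (46 of 46 symbols matched) and the rule for named genes (all 9, the 5 highest H4WT and H4K91R folds of the wider list and its H4K91Q or empty-vector genes, and the 5 genes nearest to the member marked in most lists, leaving out predicted genes) were chosen with earlier results of these data known. The window of 1 kb around listed starts was added after seeing the data.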

Additional observations from a re-analysis of the deposited data

How the results depend on the processing

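Counts and covered bases were held to 1.5 times the reported value, and overlap shares to their exact interval. Of 149 recomputed values, 108 stayed within these limits and 41 did not. Keeping peaks with −log10 q from 5 upward, H4K91R had 13 peaks over 5357 bp, 3 genes in the body (length-matched background 30.3%) and 2 at a start (12%). The empty vector then had 0 peaks, 0 bp, 0 genes in the body and 0 genes of the wider list. In tagged lists of equal length H4K91R had 5 peaks over 2995 bp, 2 genes at gene ends (background 14.2%), 2 in the body (19.1%), 1 at a start (6.96%) and 11 of the wider list of 46 (14.2%). H4WT had 9 peaks over 6360 bp, 2 genes at gene ends (background 29.7%), 5 at a start (21.3%) and 14 of the wider list (29.7%). Windows of 500 bp left H4K91Q 0 genes at gene ends and 1 in the body, since the Tet2 peak then counts as body. Windows of 2 kb gave the empty vector 1 gene at gene ends (Dnmt1) and 1 in the body. Around listed starts H4K91R had 7 genes. Without flanks H4K91Q had 1 peak over 210 bp.

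Overlap shares moved as well. H4K91R peaks met H4WT in 92.3% with that q filter, 40.0% at equal length and 43.3% with 50% of each peak. They met H4K91Q in 40.0% at equal length. H4K91Q peaks met H4WT in 0% with 50% of each peak. H4WT peaks met H4K91R in 24.5%, 22.2% and 18.8% in those 3 settings, and H4K91Q in 11.1% at equal length and 0% with 50%. H4K91R peaks met an empty-vector peak in 0% in each of the 3 settings. H4WT peaks did so in 0% with the q filter and 1.45% with 50%. The q filter left no empty-vector peak at these loci, so its 0% values were fixed in advance. The cause was not tested, other than that each setting shortens the lists or narrows the rule. Leaving out empty-vector overlaps moved no result beyond these limits, nor did flanks of 10 kb. No replicate could be left out. No paired analysis was possible because each group has 1 library. Depth limits every absent peak.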
